A study of Mus musculus with 4 samples.

Results

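The genes described here are 33 genes of glycolysis, lactate handling, glycogen and the hypoxia response, out of 25393 genes listed for cultured mouse astrocytes. They were chosen by name, by an exact match of the gene symbol, and all 33 were found. They take in the glucose transporter Slc2a1, 2 hexokinases, 6 genes of upper glycolysis, 3 PFKFB regulators, 6 genes of lower glycolysis, 2 lactate dehydrogenases, 2 lactate transporters, 5 genes that gate pyruvate into the mitochondrion, 2 glycogen enzymes and 4 hypoxia genes.

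RNA-seq was performed on astrocytes from the cortex and hippocampus of C57BL/6 pups at postnatal day 1, to ask how loss of Tet1, an enzyme that oxidises methylated cytosine in DNA, alters astrocyte gene expression. The 2 WT libraries and the 2 libraries labelled KO (tet1-/-, a constitutive deletion carried by all cells) were untreated. Cells from 2 mice per isolation were grown for about 7 days in a coated flask, shaken at 260 rpm to remove loosely attached cells, and collected 24 h later. The labels do not say whether replicates came from separate isolations, so p-values measure only the spread between these libraries. Reads on genes numbered 18749610 and 22673555 in WT replicates 1 and 2, and 20702980 and 22403163 in KO-labelled replicates 1 and 2. All levels below are normalized counts, which are reads divided by the size factor of the library, unless FPKM (fragments scaled by the length of the gene and by the library total of reads on genes) is named. A count of 3 reads corresponds to 2.70 to 3.21 normalized counts. Aldoa matched a second identifier, listed at 35.2 and 32.2 normalized counts in WT, against 26.8 and 23.4 in the KO-labelled libraries, and the abundant Aldoa entry was used.

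Tet1 itself did not follow the labels. Its level was 266 and 121 in WT replicates 1 and 2, against 173 and 463 normalized counts in KO-labelled replicates 1 and 2, so the groups overlapped. The fold change of Tet1 on the log2(normalized count + 1) scale, KO-labelled minus WT, was 0.66 with a standard error of 0.65 (limma, adjusted p = 0.691). The paper describes Tet1 mRNA as almost undetectable in its KO astrocytes, whereas here KO-labelled replicate 2 was above both WT libraries. Which exons the deletion removes is not given in the labels, and reads counted on the remaining exons would not show it. Why Tet1 did not follow the labels was not tested.

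Other genes also set the libraries apart. The summed level of 10 astrocyte markers was 175750 and 173970 normalized counts in WT, 272000 in KO-labelled replicate 1 and 51720 in KO-labelled replicate 2, and none of the 10 was at 0 in any library. Gfap, the most abundant of them, had 58004, 67297, 174853 and 9945 normalized counts in the same order. Gfap alone set the high sum of KO-labelled replicate 1, since the other 9 markers summed to 117750 and 106670 in WT, against 97147 and 41774 in the KO-labelled libraries. Both KO-labelled libraries were below both WT libraries for 5 of the 10 (25.4% of all genes) and above them for 1 (22.5%), and the median log2 fold change of the 10 was -0.73. Among 12 microglia markers, led by C1qa, the sum was 1272 and 2868 in WT against 201 and 153 in the KO-labelled libraries, with P2ry12 at 0 in KO-labelled replicate 1. Among 10 proliferation genes, led by Pcna, it was 1070 and 2914 in WT against 5463 and 9669.

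For 9 listed markers of fibroblasts, mural and endothelial cells the sum was 4505 and 12709 in WT, against 26383 and 52713 in the KO-labelled libraries. Acta2 made up 44.0%, 70.1%, 84.3% and 95.2% of these sums. The other 8 summed to 2524 and 3806 in WT, against 4131 and 2528 in the KO-labelled libraries, so the groups overlapped. Of the 9, 3 were below WT in both KO-labelled libraries (25.4% of all genes) and 3 were above (22.5%). Their median log2 fold change was -0.53. Cdh5 was at 0 in WT replicate 1, Lum was at 0 in KO-labelled replicate 1, and Cldn5 was not listed. For 9 oligodendrocyte lineage genes the sum was 7315, 11547, 18308 and 10897 over the 4 libraries, with Olig1 most abundant. Sox10, Mog and Mag were each at 0 in 1 library. The other 8 summed to 2059 and 3514 in WT, against 2989 and 3823 in the KO-labelled libraries. Of the 9, 2 were below WT in both KO-labelled libraries (25.4% of all genes) and 1 was above (22.5%). Their median log2 fold change was -0.72. For 6 neuronal genes the sum was 894, 1926, 2482 and 1840 over the 4 libraries, with Stmn2 most abundant. Dcx was at 0 in WT replicate 2 and Snap25 at 0 in both WT libraries. The other 5 neuronal genes summed to 70.4 and 96.6 in WT, against 258 and 424 in the KO-labelled libraries, and 4 of the 5 neuronal genes tested were above WT in both KO-labelled libraries (22.5% of all genes), with a median log2 fold change of 1.80. Markers of red blood cells were not listed. Xist, expressed from the inactive X chromosome of females, had 8.54 and 0.92 normalized counts in WT, against 2897 and 13367 in the KO-labelled libraries. The 4 Y-linked genes summed to 3765 and 1909 in WT, 0 in KO-labelled replicate 1 and 830 in replicate 2. Sex therefore cannot be told apart from the labels. The part of these shifts in cell makeup, proliferation and sex in the results below was not tested, and in bulk samples fewer cells of a type and less RNA per cell cannot be told apart.

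Astrocytes are known as strongly glycolytic cells of the brain. Glucose enters mainly through Slc2a1 (GLUT1), is trapped by hexokinase and broken down to pyruvate, and much of the pyruvate is reduced to lactate by lactate dehydrogenase and exported by monocarboxylate transporters, a supply route to neurons often called the lactate shuttle. Pyruvate dehydrogenase, held back by the PDK kinases, admits pyruvate to mitochondria, and astrocytes hold most of the brain's glycogen. Low oxygen stabilises Hif1a, which binds a short core sequence near its target genes, among them many of the glycolytic genes described here.

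That core was looked for in RefSeq promoters (GRCm38.p6, 250 bases before to 50 bases after each transcription start). All 33 genes matched, with 49 promoters between them. The letters ACGTG, on either strand, were in 25 of the 49 promoters (51.0%) against 19.6% of all 32851 promoters of that length. The letters GCGTG were in 26 (53.1%) against 32.4%. The promoters of these genes were also richer in G and C, with a median GC content of 61.3% against 52.7% for all promoters and a median of 20 against 7 CG pairs per promoter. Windows with ACGTG before the transcription start are shown for Ldha, Hk2, Slc16a1, Slc16a3 and Pfkfb3, 5 genes with an unadjusted p under 0.05 between the labels, and for Bnip3, a textbook target of the hypoxia response. Matches after the start, such as those of Slc16a1 and Gapdh, are not shown. Capitals mark ACGTG or its reverse complement CACGT, which overlap in the palindrome CACGTG.
Ldha, chr7:46845649-46845674, plus strand: tgtcgcagcaCACGTGgagccactct
Ldha, chr7:46845746-46845784, plus strand: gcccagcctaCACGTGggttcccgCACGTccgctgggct
Hk2, chr6:82774492-82774516, minus strand: tgagcacatcCACGTcactgtccgg
Hk2, chr6:82774666-82774690, minus strand: ccacggaacaCACGTcccaactctg
Slc16a1, chr3:104638454-104638479, plus strand: ggcgccgggtCACGTGgcgggaaggg
Slc16a3, chr11:120949035-120949062, plus strand: cggtgACGTGcgcgggggACGTGccgcg
Pfkfb3, chr2:11502128-11502153, minus strand: cccttctctcCACGTGaaagggggct
Pfkfb3, chr2:11553975-11553999, minus strand: ccgcgccgtgACGTGccaagctgtg
Bnip3, chr7:138909599-138909624, minus strand: gcacgcgccgCACGTGccacacgctc
The Slc16a3 window and the second Pfkfb3 window overlap an annotated exon of another transcript. The Eno2 promoter held neither motif, and that of Pfkl held GCGTG only. A match describes these letters only, and the list includes genes that were higher (Ldha, Hk2) and genes that were lower (Slc16a1, Slc16a3, Pfkfb3) in the KO-labelled libraries.

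On the FPKM scale Ldhb was the most abundant of the 33 genes, with a mean of 522 FPKM over the 4 libraries, followed by Aldoa (285), Pkm (263), Pgk1 (207) and Eno1 (203). At the low end stood Slc16a3 (0.896), Pfkfb2 (1.89) and Pfkfb4 (2.49). Summed over the 33 genes, the level was 2731 and 3107 FPKM in WT, 2925 in KO-labelled replicate 1 and 1973 in KO-labelled replicate 2. The lower sum of KO-labelled replicate 2 went with lactate dehydrogenase, at 270 FPKM for Ldha and Ldhb together against 685, 837 and 825 in the other libraries. The pair of glycogen genes also had its lowest sum there, at 76.4 FPKM against 195 to 296, through Pygb alone.

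**Figure D1:**
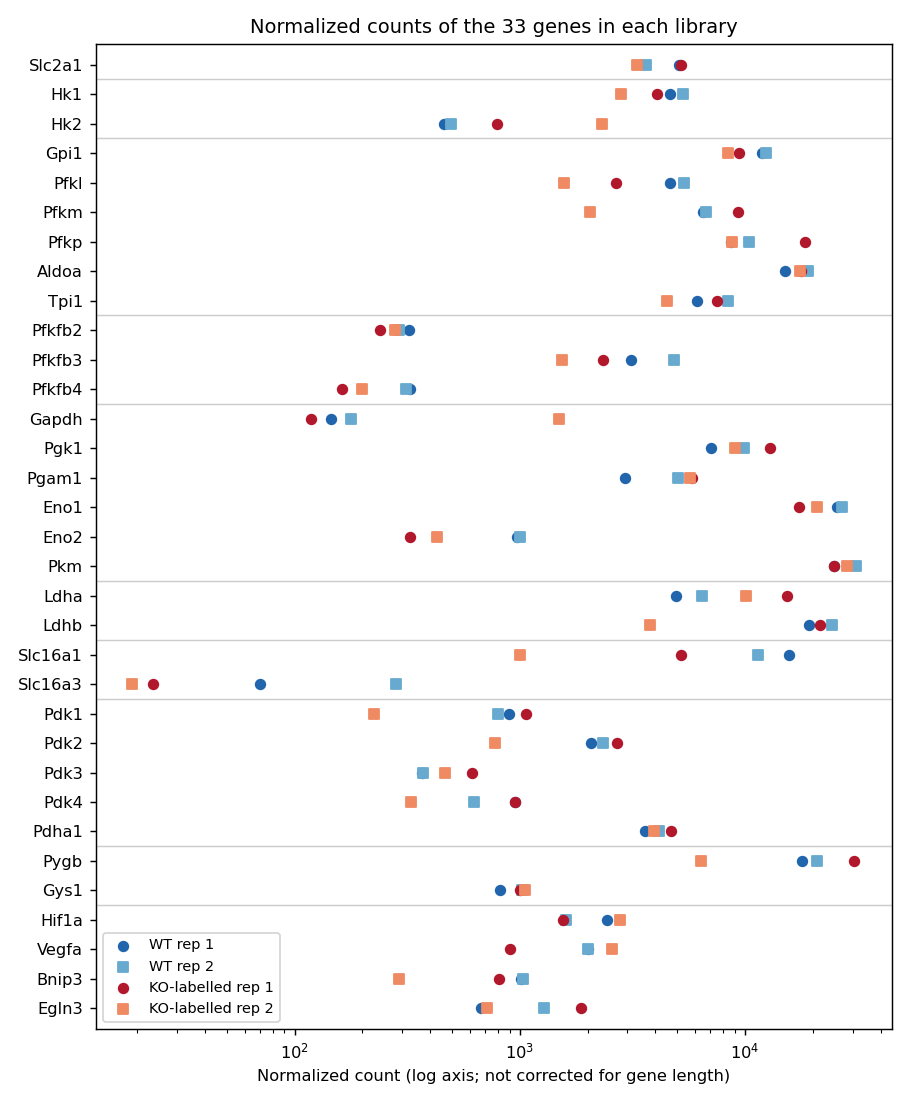
Normalized count of each of the 33 genes (log axis, not corrected for gene length) in the 2 WT libraries (blue) and the 2 libraries labelled KO (red and orange), with grey lines between roles. Gapdh is listed far higher in KO-labelled replicate 2 (1491) than in the other libraries (119 to 178). Its own count is uncertain, since reads may be split between Gapdh and near-identical copies. Slc16a1 and Slc16a3 are lower in both KO-labelled libraries than in both WT libraries.

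Comparing the labels, none of the 33 genes passed an adjusted p of 0.05 in limma, as was true of all 22094 genes tested (0% called). All 33 genes had passed the filter, a mean normalized count of at least 1. At an unadjusted p under 0.05, Hk2 and Ldha were higher (2 of 33, or 6.06%, against 4.54% of all genes tested) and Pfkl, Pfkfb3, Eno2, Slc16a1 and Slc16a3 were lower (5 of 33, or 15.2%, against 9.18%) in the KO-labelled libraries, and the other 26 did not pass. The smallest adjusted p among the 33 was 0.204, for Eno2. The groups did not overlap, with both KO-labelled libraries above both WT libraries, for Hk2, Pgam1, Ldha and Pdk3 (12.1%, against 22.5% of all genes). Both were below both WT libraries for 11 genes, namely Hk1, Gpi1, Pfkl, Pfkfb2, Pfkfb3, Pfkfb4, Eno1, Eno2, Slc16a1, Slc16a3 and Bnip3 (33.3%, against 25.4%). In limma the median log2 fold change of the 33 genes was -0.40. It was -0.07 for all genes tested and 0.05 for genes with a mean of 50 or more. The median of the 33 was smaller in DESeq2 (-0.226, against -0.025 for all genes) and in edgeR (-0.263, against -0.065).

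The limma median of the 33 genes rested on KO-labelled replicate 2, without which it was 0.06. Without this library 4 of the 33 genes were higher (Hk2, Ldha, Pdk3 and Pfkp) and 5 lower (Pfkl, Pfkfb4, Eno2, Slc16a1 and Vegfa) at an unadjusted p under 0.05, when 4.1% of all genes were higher and 9.28% lower. Without KO-labelled replicate 1 there were 2 higher and 11 lower, when 8.24% of all genes were higher and 13.7% lower. Leaving out WT replicate 1 left only Slc16a3 (all genes 1.24% higher and 3.9% lower), and leaving out WT replicate 2 left 0 (2.19% and 4.06%). In DESeq2 on the recovered reads, Eno2 (adjusted p = 0.0312) and Slc16a3 (adjusted p = 0.0065) were lower at an adjusted p under 0.05, or 6.06% of the 33 against 4.62% of all genes. By the same DESeq2 test 0 of the 33 were higher, against 1.64% of all genes. In edgeR 0 passed an adjusted p of 0.05 and 7 (21.2%) had an unadjusted p under 0.05, against 12.4% of all genes.

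**Figure D2:**
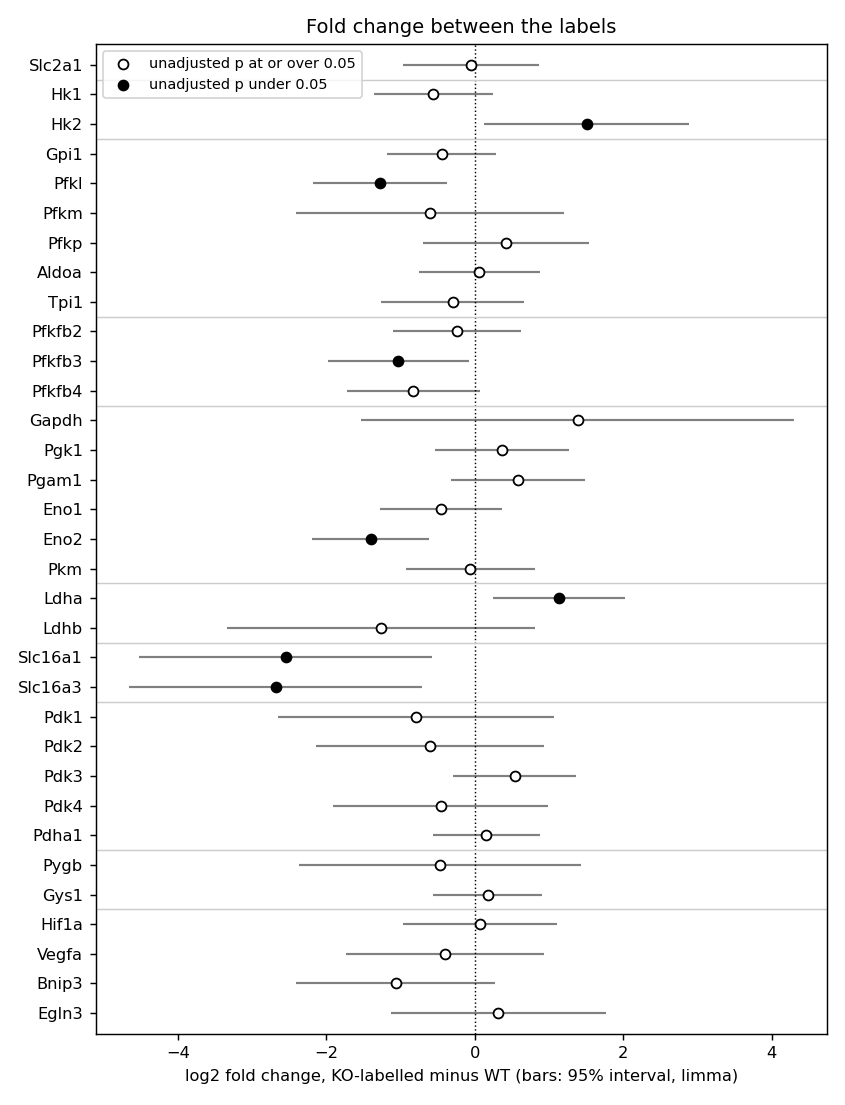
Log2 fold change of each of the 33 genes, KO-labelled minus WT, from limma on log2(normalized count + 1), with bars for the 95% interval and filled points for an unadjusted p under 0.05. The 7 filled points are Hk2 and Ldha to the right of 0 and Pfkl, Pfkfb3, Eno2, Slc16a1 and Slc16a3 to the left, and the widest bar is that of Gapdh.

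Both lactate transporters had lower values in the KO-labelled libraries, and their log2 fold changes were the largest of the 33 in limma on all 4 libraries. Slc16a3 kept the first place in DESeq2, in edgeR, without KO-labelled replicate 2 and without WT replicate 1. Slc16a1 took the first place without WT replicate 2 (-2.78) and without KO-labelled replicate 1 (-3.74). Slc16a1 came after Gapdh in DESeq2 and edgeR, and after Eno2 and Ldha without KO-labelled replicate 2. Slc16a1 (MCT1, chr3:104638668-104658462 on mm10), the broadly used carrier that moves lactate together with a proton, had 15638 and 11404 normalized counts in WT, against 5186 and 1000 in the KO-labelled libraries. The groups were separate, and the KO-labelled libraries differed from each other more than 2-fold. The log2 fold change was -2.55 with a standard error of 0.78 (limma, adjusted p = 0.287), and -1.36 without KO-labelled replicate 2. Slc16a3 (MCT4, chr11:120948480-120960868), a low-affinity carrier known for lactate export from highly glycolytic cells, had 70.4 and 282 normalized counts in WT, against 23.5 and 18.9 in the KO-labelled libraries. Here the groups were also separate, and the WT libraries were the pair that differed more than 2-fold. The log2 fold change was -2.69 with a standard error of 0.79 (limma, adjusted p = 0.275). It was -2.53 without KO-labelled replicate 2, -1.69 without WT replicate 2 and -3.68 without WT replicate 1. Slc16a3 had its highest level in WT replicate 2 and its lowest in KO-labelled replicate 2, as did the microglia marker sum. The part of microglial RNA in the Slc16a3 counts was not tested.

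Together the transporters summed to 177 and 126 FPKM in WT and to 53.1 and 11.4 FPKM in the KO-labelled libraries, nearly all of it Slc16a1. Bsg, the chaperone that carries Slc16a1 and Slc16a3 to the membrane, was among 4 genes of lactate transport partners, and 0 of the 4 had an unadjusted p under 0.05 in limma (all genes 4.54% higher and 9.18% lower).

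Of the 2 lactate dehydrogenases, Ldha was higher at an unadjusted p under 0.05 in limma (4.54% of all genes) and Ldhb did not pass. Ldha (chr7:46841475-46855627), the subunit that favours making lactate, had 4958 and 6421 normalized counts in WT, against 15269 and 10082 in the KO-labelled libraries. Both KO-labelled libraries were above both WT libraries. The log2 fold change was 1.14 with a standard error of 0.35 (limma, adjusted p = 0.292), 1.44 without KO-labelled replicate 2 and 0.84 without KO-labelled replicate 1, where its unadjusted p was no longer under 0.05. Ldhb, the subunit usually tied to lactate use, had 19151 and 24336 in WT, 21472 in KO-labelled replicate 1 and 3779 in replicate 2, so only KO-labelled replicate 2 stood apart (log2 fold change -1.26, standard error 0.83, limma adjusted p = 0.550). Without that library the log2 fold change of Ldhb was -0.01. The ratio of Ldha to Ldhb in FPKM was 0.123 and 0.125 in WT, 0.337 in KO-labelled replicate 1 and 1.27 in replicate 2. Both KO-labelled libraries lay above WT, with a log2 difference of 2.40 from all 4 libraries and of 1.44 without KO-labelled replicate 2.

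For this ratio the exact permutation test, two-sided, gave p = 0.333, the smallest that 2 libraries against 2 allow. On the FPKM scale 15 ratios and shares of related genes were compared, and no p adjusted over them could go below 0.333. The groups were separate for 9 of them. Among all single genes tested, 22.5% were separate with higher KO-labelled values and 25.4% with lower ones. The 15 include the shares of Hk1, Hk2 and Hk3 in their sum. Shares of the same sum depend on each other, so the 9 are not independent results.

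Of the 2 hexokinases among the 33 genes, Hk2 was higher at an unadjusted p under 0.05 in limma (4.54% of all genes) and Hk1 did not pass. Hk1 (chr10:62268855-62379908), the main hexokinase of brain, had 4650 and 5320 normalized counts in WT, against 4061 and 2809 in the KO-labelled libraries (log2 fold change -0.56, standard error 0.32, limma adjusted p = 0.495). Its log2 fold change was -0.29 without KO-labelled replicate 2. Hk2 (chr6:82725025-82774454), the inducible form that binds mitochondria and is known as a target of growth signals and hypoxia, had 459 and 493 in WT, against 791 and 2309 in the KO-labelled libraries. The groups were separate, and the level in KO-labelled replicate 2 was more than 2-fold that in replicate 1. The log2 fold change of Hk2 was 1.51 with a standard error of 0.55 (limma, adjusted p = 0.345), and 0.73 without KO-labelled replicate 2. The Hk2 to Hk1 ratio in FPKM was 0.141 and 0.132 in WT, 0.278 in KO-labelled replicate 1 and 1.17 in replicate 2 (log2 difference 2.07, exact permutation p = 0.333). It was 1.03 without KO-labelled replicate 2. The 4 libraries stood in the same order for Hk2 as for the summed proliferation genes, lowest in WT replicate 1 and highest in KO-labelled replicate 2, and the part of proliferation was not tested. Hk3, the hexokinase of blood and immune cells, is not among the 33 genes. It had 66.2 and 166 normalized counts in WT, against 6.42 and 2.70 in the KO-labelled libraries. With Hk3 included, the summed hexokinase level was 32.0 and 36.0 FPKM in WT, against 27.5 and 35.5 in the KO-labelled libraries, so the sums overlapped on this scale. In normalized counts, where gene length plays no part, the sum was 5175 and 5978 in WT, against 4858 and 5121 in the KO-labelled libraries, and the groups were narrowly separate.

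**Figure D3:**
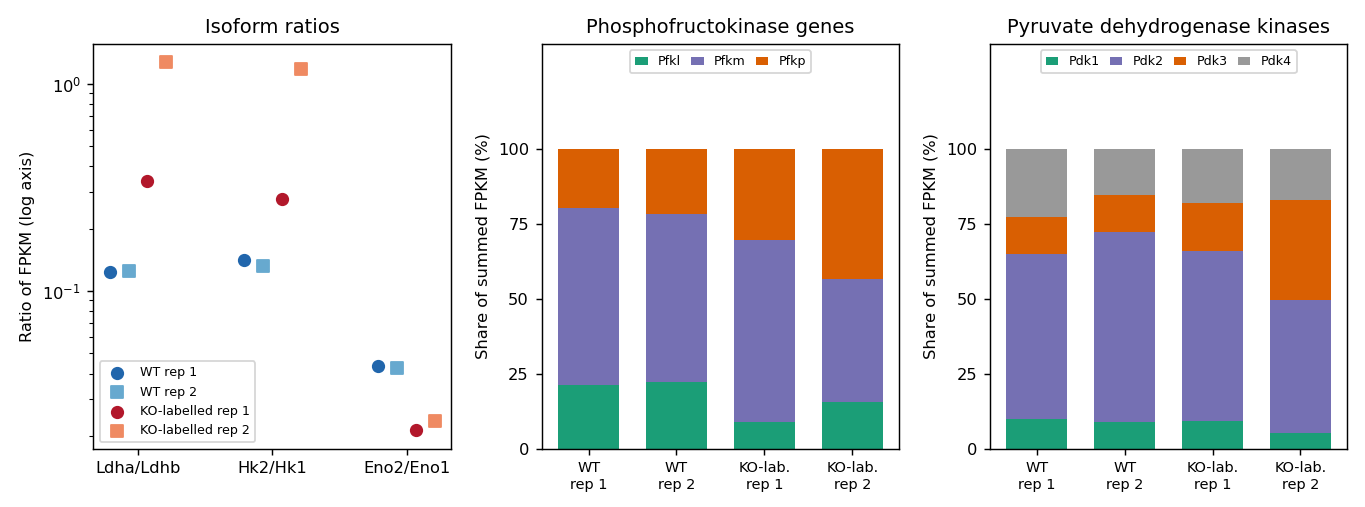
Left, ratios of FPKM (log axis) of Ldha to Ldhb, Hk2 to Hk1 and Eno2 to Eno1 in each library. Middle and right, the share of each gene in the summed FPKM of the 3 phosphofructokinase genes and the 4 pyruvate dehydrogenase kinases. KO-labelled replicate 2 has the highest Ldha to Ldhb ratio (1.27), Hk2 to Hk1 ratio (1.17), Pfkp share (43.4%) and Pdk3 share (33.2%).

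The Slc2a1 transcript did not separate the labels. Its levels were 5064 and 3645 normalized counts in WT, against 5211 and 3314 in the KO-labelled libraries, and the 95% interval of the log2 fold change ran from -0.96 to 0.87 around -0.05. The neuronal-type transporter Slc2a3 stood at 0.0619 and 0.133 of Slc2a1 in WT, against 0.0461 and 0.130 in the KO-labelled libraries, on the FPKM scale, with overlapping groups (exact permutation p = 0.667).

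In upper glycolysis 0 of 6 genes were higher (4.54% of all genes) and 1 was lower (9.18%) at an unadjusted p under 0.05 in limma. This was Pfkl (chr10:77986947-78010083), the liver-type subunit of phosphofructokinase, the enzyme of the committed step. It had 4636 and 5332 normalized counts in WT, against 2678 and 1576 in the KO-labelled libraries. All KO-labelled values were below all WT values, with a log2 fold change of -1.27 and a standard error of 0.36 (limma, adjusted p = 0.263), and of -0.89 without KO-labelled replicate 2. The muscle-type Pfkm had 6506 and 6725 in WT, 9262 in KO-labelled replicate 1 and 2049 in replicate 2. The platelet-type Pfkp had 8699 and 10362 in WT, 18506 in KO-labelled replicate 1 and 8727 in replicate 2. For both, KO-labelled replicate 1 was the highest library, and the groups overlapped. The share of Pfkl in the summed FPKM of the 3 genes was 21.1% and 22.3% in WT, against 8.81% and 15.7% in the KO-labelled libraries. The share of Pfkp was 19.7% and 21.6% in WT against 30.3% and 43.4%. For both shares the groups were separate (exact permutation p = 0.333). The sum of the 3 genes was 165 and 172 FPKM in WT, 206 in KO-labelled replicate 1 and 74.3 in replicate 2.

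Gpi1, which turns glucose 6-phosphate into fructose 6-phosphate, had 11831 and 12358 normalized counts in WT, against 9361 and 8383 in the KO-labelled libraries (log2 fold change -0.45, limma adjusted p = 0.549). Aldoa, the main aldolase, had 14963 and 19011 in WT, against 17639 and 17513 in the KO-labelled libraries, so its KO-labelled values lay between the WT values. Its 95% interval on the log2 scale ran from -0.75 to 0.87. Tpi1, triosephosphate isomerase, ranged from 4500 in KO-labelled replicate 2 to 8409 in WT replicate 2, with overlapping groups.

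The PFKFB enzymes make and break fructose 2,6-bisphosphate, the strongest activator of phosphofructokinase. All 3 had lower values in both KO-labelled libraries than in both WT libraries, an order seen for 25.4% of all genes. Pfkfb3 (chr2:11471433-11554077), the form known for driving glycolysis, had 3105 and 4811 normalized counts in WT, against 2331 and 1535 in the KO-labelled libraries. Its log2 fold change was -1.03 with a standard error of 0.38 (limma, adjusted p = 0.345), and -0.73 without KO-labelled replicate 2. Pfkfb4 had 327 and 313 in WT, against 162 and 199 in the KO-labelled libraries (log2 fold change -0.83, standard error 0.36, limma adjusted p = 0.393). Pfkfb2 differed little, with 323 and 290 in WT, against 239 and 280 in the KO-labelled libraries (log2 fold change -0.24, limma adjusted p = 0.791). Pfkfb2 overlaps the protein-coding gene Gm29427 on the same strand, and their reads may be split between them.

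In lower glycolysis Eno2 (chr6:124760053-124769673), the neuron-type enolase, had the smallest p of the 33 genes in limma and edgeR, and Slc16a3 in DESeq2. It had 975 and 998 normalized counts in WT, against 324 and 427 in the KO-labelled libraries, and the libraries of each label lay close together. The log2 fold change was -1.40 with a standard error of 0.32 (limma, adjusted p = 0.204), and -1.60 without KO-labelled replicate 2. The neuronal markers given above overlapped between the labels in their sum, through Stmn2, and without Stmn2 their sum was higher in both KO-labelled libraries, where Eno2 was lower. The part of neuronal RNA in the Eno2 counts was not tested. Eno1 (chr4:150236721-150248879), the common enolase, had 25540 and 26794 in WT, against 17418 and 20762 in the KO-labelled libraries (log2 fold change -0.46, standard error 0.33, limma adjusted p = 0.580). The ratio of Eno2 to Eno1 in FPKM was 0.0437 and 0.0426 in WT, against 0.0213 and 0.0235 in the KO-labelled libraries (log2 difference -0.95, exact permutation p = 0.333). With the near-identical copies of Eno1 described next added to it, the log2 difference was -1.48.

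Eno1 has near-identical copies elsewhere in the genome, so reads may be split between them and its own count is uncertain. How reads that match several copies were assigned was not tested. The copies listed are Eno1b (99.4% identical over the coding sequence), Gm4735 (99.6%) and Gm5855 (96.3%). Eno1b had 761 and 965 normalized counts in WT, against 6966 and 7842 in the KO-labelled libraries (log2 fold change 3.11, standard error 0.29, limma adjusted p = 0.0777, DESeq2 adjusted p = 7.6e-11). Gm4735 had 300 and 345 in WT, against 1943 and 2204 in the KO-labelled libraries (log2 fold change 2.68, limma adjusted p = 0.0924). Gm5855 had 14.9 and 12.9 in WT, against 94.2 and 438 in the KO-labelled libraries. Together the copies held 4.04% and 4.70% of the Eno1 family in WT, against 34.1% and 33.6% in the KO-labelled libraries. Summed with its copies, Eno1 had 26616 and 28117 in WT, against 26422 and 31246 in the KO-labelled libraries, so the groups overlapped and the log2 fold change turned to 0.07 (95% interval -0.78 to 0.92). This sum was formed after the values had been seen.

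**Figure D4:**
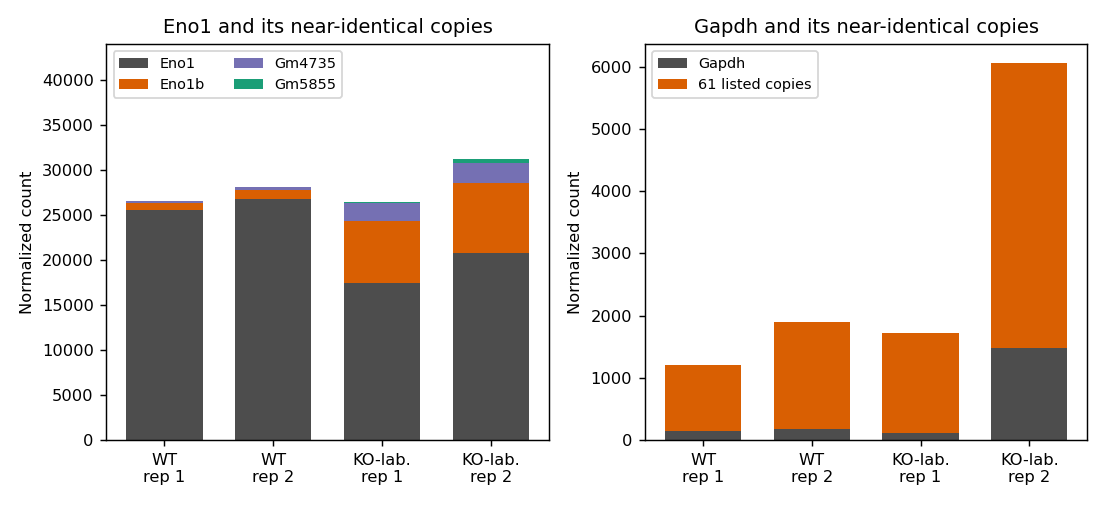
Normalized counts stacked over Eno1 and its 3 listed copies (left) and over Gapdh and its 61 listed copies (right) in each library. The Eno1 totals range from 26422 to 31246 while the copies take a larger share in the KO-labelled libraries, and the Gapdh total of KO-labelled replicate 2 (6059) is the highest.

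Gapdh, widely used as a reference gene, was listed at 145 and 178 normalized counts in WT, against 119 and 1491 in the KO-labelled libraries, or 1.76, 2.07, 1.30 and 17.9 FPKM. KO-labelled replicate 2 alone stood apart, and the log2 fold change of 1.38 had a standard error of 1.16 (limma, adjusted p = 0.632) and was -0.43 without that library. As with Eno1, reads may be split between Gapdh and its copies, so its own count is uncertain. Gapdh has 69 near-identical annotated copies, of which 61 were listed. They held 87.9% and 90.6% of the Gapdh family in WT, against 93.1% and 75.4% in the KO-labelled libraries. The copies summed to 1057 and 1719 in WT, against 1612 and 4568 in the KO-labelled libraries. Gm13394, named after its values were seen, made up 2678 of the last sum against 52.3, 178 and 98.5 in the other libraries. For Gapdh with its copies the log2 fold change was 1.10 (95% interval -0.52 to 2.72). The other 8 genes with a listed copy, among them Ldha, Ldhb, Pkm and Pgk1, had at most 1.84% of their counts in copies, and 23 genes had no copy.

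The remaining genes of lower glycolysis are Pgam1, Pkm and Pgk1. Pgam1, phosphoglycerate mutase, had 2938 and 5050 normalized counts in WT, against 5831 and 5718 in the KO-labelled libraries (log2 fold change 0.58, limma adjusted p = 0.525), with separate groups. Its log2 fold change was 0.19 without WT replicate 1 and 0.97 without WT replicate 2. Pkm, the pyruvate kinase of brain, had 24812 and 31130 in WT, against 24919 and 28414 in the KO-labelled libraries, with a 95% interval from -0.93 to 0.80 on the log2 scale. Pgk1, phosphoglycerate kinase, ranged from 7057 in WT replicate 1 to 12869 in KO-labelled replicate 1, with overlapping groups.

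At the entry of pyruvate into mitochondria 0 of 5 genes had an unadjusted p under 0.05 in limma, against 4.54% of all genes that were higher and 9.18% that were lower. Pdk1, Pdk2 and Pdk4, kinases that switch pyruvate dehydrogenase off, were each lowest in KO-labelled replicate 2. Pdk1, a known hypoxia target, had 899 and 798 normalized counts in WT, 1062 in KO-labelled replicate 1 and 224 in replicate 2. Pdk2 had 2066 and 2330 in WT, against 2686 and 773 in the KO-labelled libraries, and Pdk4 had 950 and 626 in WT and 949 and 330. In KO-labelled replicate 1 all 3 were thus at or near the highest WT value, or above it. Pdk3, by contrast, was higher in both KO-labelled libraries (615 and 467) than in WT (367 and 371), with a log2 fold change of 0.54 and a standard error of 0.33 (limma, adjusted p = 0.520). The share of Pdk3 in the 4 kinases was 12.1% and 12.5% of the summed FPKM in WT, against 16.1% and 33.2% in the KO-labelled libraries. Pdha1, the catalytic subunit that these kinases act on, had 3591 and 4163 in WT, against 4694 and 3959 in the KO-labelled libraries, with overlapping groups. Pdk3, Pdha1 and Pgk1 are on the X chromosome, with log2 fold changes of 0.54, 0.16 and 0.37, and Xist and the Y-linked genes differed between the labels as given above.

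The glycogen genes did not separate the labels. Pygb, the brain glycogen phosphorylase, had 17960 and 20798 normalized counts in WT, 30563 in KO-labelled replicate 1 and 6361 in replicate 2, the highest and the lowest of the 4 libraries. Gys1, glycogen synthase, was nearly level at 817 and 1018 in WT, against 1006 and 1050 in the KO-labelled libraries (95% interval of the log2 fold change -0.57 to 0.91).

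Of the hypoxia genes 0 of 4 had an unadjusted p under 0.05 in limma (all genes 4.54% higher and 9.18% lower). Hif1a, the oxygen-regulated transcription factor, which is controlled mainly at the protein level, had 2442 and 1605 normalized counts in WT, against 1552 and 2779 in the KO-labelled libraries, so the groups overlapped. Vegfa, the vascular growth factor, had 2014 and 2004 in WT, 901 in KO-labelled replicate 1 and 2561 in replicate 2. Bnip3, a mitophagy receptor, had 1009 and 1036 in WT, against 811 and 292 in the KO-labelled libraries, with separate groups (log2 fold change -1.07, standard error 0.53, limma adjusted p = 0.443), and its log2 fold change was -0.33 without KO-labelled replicate 2. Egln3, an oxygen sensor that marks HIF for destruction and is itself induced by it, had 673 and 1280 in WT, against 1870 and 714 in the KO-labelled libraries. Hif1a, Vegfa and Egln3 thus shared no direction between the labels.

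Within a label, the replicates also differed. The KO-labelled replicates were apart by more than 2-fold for 13 of the 33 genes (39.4%, against 28.6% of 12868 genes whose mean was 50 or more). In 10 of these replicate 2 was lower (Pfkm, Pfkp, Ldhb, Slc16a1, Pdk1, Pdk2, Pdk4, Pygb, Bnip3 and Egln3), and in 3 it was higher (Hk2, Gapdh and Vegfa). Among the WT replicates a 2-fold difference was seen for 1 of the 33, Slc16a3 (3.03%, against 10.7%). KO-labelled replicate 2 was the lowest library for 15 of the 33 genes (45.5%, against 32.6%).

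**Figure D5:**
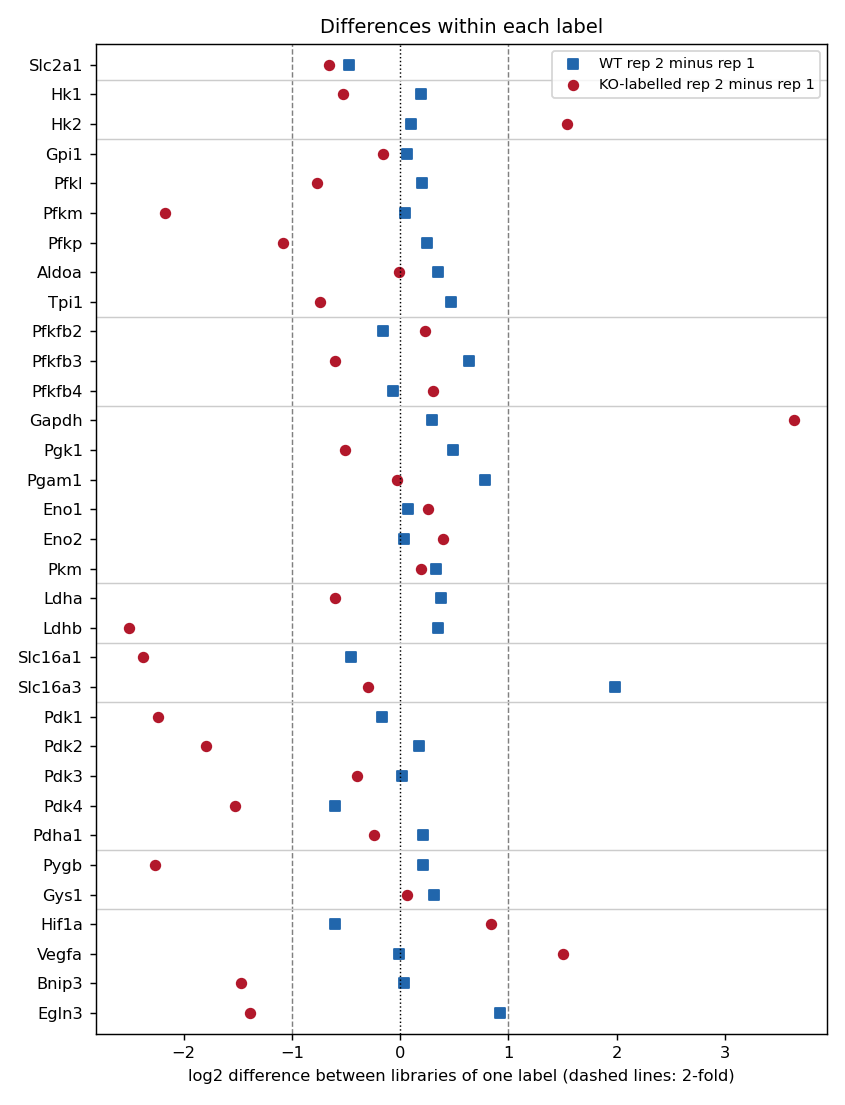
Log2 difference between replicate 2 and replicate 1 for each of the 33 genes, within WT (blue squares) and within the KO label (red circles), with dashed lines at a 2-fold difference. The red circles pass a dashed line for 13 genes and the blue squares for 1, Slc16a3.

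The wider pathway was read from lists of 96 related genes, of which 92 were listed and 88 tested. At an unadjusted p under 0.05 in limma 4 of them were higher (4.55%, against 4.54% of all genes) and 8 lower (9.09%, against 9.18%). None (0) passed an adjusted p of 0.05, and the median log2 fold change was 0.05. By edgeR 10 had an unadjusted p under 0.05 (11.4%, against 12.4% of all genes) and 0 passed an adjusted p. By DESeq2 2 were higher (Eno1b and Slc2a13) and 2 lower (Hk3 and Pygl) at an adjusted p under 0.05, each 2.38% of the 84 with an adjusted p, against 1.64% and 4.62% of all genes. Of 24 known hypoxia-response targets 23 were tested. In limma 0 were higher (4.54% of all genes) and 2 lower (9.18%) at an unadjusted p under 0.05. In edgeR 1 was higher and 2 were lower at that threshold (12.4% of all genes in either direction). DESeq2 called 0 at an adjusted p under 0.05. Lower in limma were Adm, which encodes the vasodilator adrenomedullin, and P4ha2, a collagen prolyl hydroxylase. Adm had 527 and 825 normalized counts in WT, against 139 and 325 in the KO-labelled libraries (log2 fold change -1.63). P4ha2 had 729 and 379 in WT, against 278 and 129 (-1.47). The median log2 fold change of the 23 targets was 0.18, and of 8 HIF factors and regulators 0 passed in limma.

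Among 15 glycogen genes beyond the 33, 0 were higher (4.54% of all genes) and 2 lower (9.18%) at an unadjusted p under 0.05 in limma. In edgeR at that threshold 0 were higher and 1 was lower (12.4% of all genes in either direction). DESeq2 called 0 higher (1.64% of all genes) and 1 lower (4.62%) at an adjusted p under 0.05. Pygl, the liver-type phosphorylase, had 165 and 563 normalized counts in WT, against 42.8 and 9.01 in the KO-labelled libraries (log2 fold change -3.87, standard error 0.95, limma adjusted p = 0.227). Pygm, the muscle type, had 35.2 and 46.9 in WT, against 17.1 and 4.51 in the KO-labelled libraries. Hk3 had a log2 fold change of -4.33 (standard error 0.78, limma adjusted p = 0.159), and Hk3, like Pygl, was highest in WT replicate 2 and lowest in KO-labelled replicate 2, as was the microglia marker sum. The part of microglial RNA in these counts was not tested.

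Reads from overlapping genes are a limit for part of the list, since the sources used here do not say whether strand was counted. Of the 33 genes, 15 overlapped no other annotated gene, among them Slc16a3, Eno2, Pfkl and Ldha. A gene on the opposite strand overlapped 16, among them Hk2 and Pfkfb3, and a gene on the same strand overlapped 7, among them Slc16a1 and Pfkfb3.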

How the data were processed

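Reads from paired-end Illumina sequencing were filtered by the authors before alignment to mm10. The aligner, counter and annotation release are not given in the sources used here. The deposited value per gene and library is a signal, whole reads divided by 1 size factor per library (0.937 and 1.09 in WT, 0.934 and 1.11 in the KO-labelled libraries), although its name speaks of FPKM. In every library 100% of the values were whole reads within 0.01 read. The authors also deposited a log2 fold change with its raw and adjusted p-value for every gene, none of which was used, besides other columns that give the length and position of genes.

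The labels were compared on log2(normalized count + 1) with limma 3.58.1 under R 4.3.3, using lmFit, and eBayes with its trend option. The fit had no block and took in 22094 genes whose mean was 1 or more, and Benjamini-Hochberg adjustment ran over all of them. The recovered reads went into edgeR 4.0.16 (TMM, quasi-likelihood test) and DESeq2 1.42.0, and FPKM was computed from these reads, the gene lengths in the table and the reads on genes. Exact permutation tests were two-sided and used scipy 1.17.1. Near-identical copies were found with blastn 2.17.0 (at least 95% identity over at least 50% of the coding sequence) in GENCODE M21 transcripts, and 25381 of the identifiers were in that release. Simulated data were used to test each fit. Figures came from matplotlib 3.10.9, and tables from pandas 2.3.3 and numpy 2.4.6, under Python 3.11.15.

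Libraries were grouped by the genotype in their labels. Replicates differed by more than sampling noise, with a median chi-square per gene of 8.04 for the WT pair and 27.1 for the KO-labelled pair, where noise alone gives 0.455. Mitochondrial genes took 1.95% and 1.17% of the reads in WT, against 1.95% and 2.08% in the KO-labelled libraries. The 33 genes, the related lists and the markers were chosen with earlier results of these data known. The genes named are the 33, Tet1, up to 10 related genes with an unadjusted p under 0.05 by size of fold change, isoforms compared with a member, the leading or absent gene of each marker list, and sex-linked genes. Bsg and the copies of Eno1 are named for their role, and Gm29427 for its overlap. The alternatives tried were other pseudocounts, filters and scalings, no variance trend, a replicate block, each library left out, edgeR and DESeq2. Summing near-identical copies, and leaving out libraries for the ratios and related genes, were added after seeing the data.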

Additional observations from a re-analysis of the deposited data

How the results depend on the processing

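The precision is set by 2 libraries per label. Of 561 values of the 33 genes under 17 alternatives, 536 kept their direction and their side of an adjusted p of 0.05, 23 reversed and 2 passed it, and 18 genes had no reversal. DESeq2 called 1088 genes at an adjusted p under 0.05 where limma called 0. Among them were 2 of the 33 and 4 related genes, when 1.64% of all genes were higher and 4.62% lower. The 2 of the 33 were Eno2 and Slc16a3. The number of the 33 that were higher at an unadjusted p under 0.05 was 2, and became 1 with scaling to equal sums and 0 without a variance trend. When each library was left out in turn, a lone library being assumed to vary like the others, the counts at an unadjusted p under 0.05 ranged from 1135 to 4846 for all genes. They ranged from 0 to 4 for the 33 genes that were higher, from 0 to 11 for those that were lower and from 3 to 32 for the related genes. The median log2 fold change of the 33 genes then ranged from -0.3991 to 0.0646. The Ldha to Ldhb log2 difference ranged from 1.44 to 3.35, that of Hk2 to Hk1 from 1.03 to 3.10, and that of Eno2 to Eno1 from -1.02 to -0.87. The differences of Slc16a3 to Slc16a1 (-1.42 to 1.04) and Slc2a3 to Slc2a1 (-0.98 to 0.52) changed sign.

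Leaving out 1 library also turned the log2 fold change of 14 genes. The ranges were -0.37 to 0.28 for Slc2a1, -0.11 to 0.23 for Aldoa, -0.38 to 1.01 for Egln3, -0.23 to 0.10 for Pkm, -0.35 to 0.49 for Hif1a, -0.12 to 0.96 for Pfkp, -1.16 to 0.35 for Vegfa, -1.69 to 0.49 for Pfkm, -0.67 to 0.0714 for Tpi1, -0.43 to 3.20 for Gapdh, -1.91 to 0.33 for Pdk1, -1.50 to 0.29 for Pdk2, -1.22 to 0.30 for Pdk4 and -1.60 to 0.66 for Pygb. With median log ratio scaling Aldoa was at -0.0137 and Hif1a at -0.0040, and with quantile normalization at -0.0496 and -0.0391. Quantile normalization moved the median of all genes by 0.129 on the log2 scale, and the median of the 33 genes stood 0.516 below it. Eno1 with its copies summed was at 0.0708, and the Eno2 to Eno1 log2 difference was then -1.4768. The cause of these changes was not tested, beyond the copies added by construction and the library left out. Same-numbered libraries share only a number, since their deviations did not go together (correlation -0.0842). A fit with that number as the replicate block gave 2583 of 22094 genes at an unadjusted p under 0.05 and 0 at an adjusted p under 0.05. Of the 33, 2 were higher and 4 lower at the unadjusted threshold, Pfkfb3 having dropped out.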

Other observations

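Hexose transporters other than Slc2a1 carry sugars and sugar alcohols into cells and across organelles. Of 7 tested, 1 was higher (Slc2a13, 4.54% of all genes being higher) and 1 lower (Slc2a6, 9.18% being lower) at an unadjusted p under 0.05 in limma, and both KO-labelled libraries were below both WT libraries for 5, an order seen for 25.4% of all genes. Slc2a13, which carries myo-inositol with protons, had 73.6 and 65.3 normalized counts in WT, against 348 and 168 in the KO-labelled libraries (log2 fold change 1.79, standard error 0.51, limma adjusted p = 0.268). Slc2a6, an intracellular hexose carrier known from immune cells, had 176 and 258 in WT, against 17.1 and 93.7 in the KO-labelled libraries (log2 fold change -2.37, standard error 0.86, limma adjusted p = 0.345). The KO-labelled libraries were 2.39 apart for Slc2a6 on the log2 scale, so the size of its fold change depends on which of them is kept. In the pentose phosphate pathway, which branches from glucose 6-phosphate and supplies NADPH, 0 of 7 genes were higher (4.54% of all genes) and 1 lower (9.18%) at that threshold, with a median log2 fold change of 0.38.

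Among the isoforms and side enzymes of glycolysis, 13 were tested, of which 1 was higher (4.54% of all genes) and 2 were lower (9.18%) at an unadjusted p under 0.05 in limma. Pgp, a phosphatase that removes toxic side products of glycolysis, had 447 and 472 normalized counts in WT, against 801 and 900 in the KO-labelled libraries (log2 fold change 0.89, standard error 0.30, limma adjusted p = 0.314). Of 9 genes for pyruvate entry and the dehydrogenase complex, 1 was higher and 0 were lower.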
